A study of Mus musculus with 12 samples.

Results

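The genes described are 6 transcription factors of the cortical neurogenic cascade, *Neurog2*, *Eomes*, *Neurod1*, *Neurod2*, *Neurod6* and *Tbr1*. They were chosen by name with earlier results of these data known, and all 6 were found among the 4859 coding genes for which the authors deposited expression values. Bulk RNA-seq was performed on cells sorted by FACS from the cerebral cortex of mouse embryos that carry the transgene Tg(Ebf2-EGFP)FB58Gsat, in which *Ebf2* regulatory sequence drives EGFP. The 12 libraries make up 6 groups of 2 replicates, one for each population (Ebf2-EGFP+ or Ebf2-EGFP- cells) at each stage (E11.5, E13.5 or E15.5). Both populations came from transgenic animals and no further treatment or allele is given. Cells of several embryos from several litters were pooled in a library, so that replicates measure the spread between pools. The reporter marks a mixture that changes with stage, preplate neurons at first and Cajal-Retzius (CR) neurons later, and Ebf2-EGFP- cells are every other cortical cell. Levels are FPKM, fragments scaled by transcript length and by the mapped fragments of the library. How many fragments stand behind a value is not known here.

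In the dorsal forebrain, glutamatergic neurons arise through a chain of transcription factors that switch on one after another. *Neurog2* encodes a proneural basic helix-loop-helix (bHLH) factor of cycling radial glia and their daughters, *Eomes* (also called Tbr2) encodes the T-box factor that marks intermediate progenitors, and *Neurod1* is switched on as cells leave the cycle. *Neurod2* and *Neurod6* encode bHLH factors of postmitotic pyramidal neurons, and *Tbr1* encodes a T-box factor of the earliest neurons, including those of the preplate, subplate and layer 6, and of CR neurons.

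Positions are those of the GENCODE M21 annotation of GRCm38, the same assembly as the mm10 build that the authors used. *Neurog2* lies on chromosome 3 from 127633135 to 127635631 on the plus strand. *Eomes* lies on chromosome 9 from 118478212 to 118486132 on the plus strand, where the antisense gene Gm33460 overlaps exonic sequence. *Neurod1* lies on chromosome 2 from 79452521 to 79456751 on the minus strand, with exonic sequence inside the spans of *Cerkl* on the same strand and of the lincRNA gene Gm26755 on the opposite one. *Neurod2* lies on chromosome 11 from 98325415 to 98329648 and *Neurod6* on chromosome 6 from 55677822 to 55681263, both on the minus strand. *Tbr1* lies on chromosome 2 from 61802930 to 61814114 on the plus strand. The strand setting of the libraries is not given in the sources used here, so *Eomes* and *Neurod1* values may hold reads of the overlapping genes.

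Neurod2 and Neurod6 had nearly the same profile over the 12 libraries, and the 250 bases before their RefSeq transcript starts are shown for that reason. The sequences are RefSeq promoters on GRCm38.p6, chr11:98329646-98329895 and chr6:55681264-55681513, both written on the minus strand from 5′ to 3′. Capitals mark every match to the E-box CANNTG, the core that bHLH dimers bind.
Neurod2: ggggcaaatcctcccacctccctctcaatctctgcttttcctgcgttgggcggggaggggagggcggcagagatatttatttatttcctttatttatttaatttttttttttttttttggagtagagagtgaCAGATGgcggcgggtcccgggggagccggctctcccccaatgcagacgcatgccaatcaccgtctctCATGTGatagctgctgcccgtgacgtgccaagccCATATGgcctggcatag
Neurod6: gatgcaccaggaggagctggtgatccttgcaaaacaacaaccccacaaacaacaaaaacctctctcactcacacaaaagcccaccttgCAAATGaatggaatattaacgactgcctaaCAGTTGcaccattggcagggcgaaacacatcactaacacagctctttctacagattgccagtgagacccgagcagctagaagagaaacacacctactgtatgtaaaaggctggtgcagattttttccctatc
Promoters of all 6 genes were matched, and each was searched on both strands from 250 bases before to 50 bases after the start. The *Neurod2* promoter held 3 E-boxes, and 17.6% of all 32851 RefSeq promoters of the same length hold as many or more. The *Neurod6* promoter held 2, and 39.6% of promoters hold as many or more. One of the 3 in *Neurod2* spells CAGATG, an E-box variant present in 17.2% of promoters. *Neurod1* and *Tbr1* held 1 E-box each, against 72.3% of promoters with 1 or more, and no CANNTG stood in the windows of *Neurog2* and *Eomes*. The T-box motif AGGTGTGA, found in 1.28% of promoters, was in none of the 6 windows. A match is a description of letters and not a binding site.

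The libraries carried the markers of their labels with limits that touch these genes. *Ebf2* measured 49.1 and 61.2 FPKM in the Ebf2-EGFP+ libraries at E11.5, but 4.32 to 6.66 and 2.83 to 5.14 at the later stages, and at most 1.54 in any Ebf2-EGFP- library. Summed FPKM of 8 radial glia genes was, at E11.5, 1341 to 1624 in Ebf2-EGFP- cells, and 406 to 430 in Ebf2-EGFP+ cells. Replicates correlated across the listed genes at r between 0.981 and 0.992. All 4859 genes were selected by the authors as differential on these libraries, so the adjusted p-values describe the list and are no independent screen. Comparisons below were fitted with limma on log2(FPKM + 1), differences are log2 differences on that scale with their standard errors (SE), and a call is a Benjamini-Hochberg adjusted p under 0.05. Folds are on the same scale and understate the change of weakly expressed genes. The comparisons share libraries and are not independent of each other.

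At E11.5 most of the cascade was higher in Ebf2-EGFP+ cells. There, 5 of the 6 genes were called higher, by 3.72 for *Eomes* to 6.34 for *Tbr1*, and *Neurog2* was the exception. Over the list 36.8% of genes were called higher and 44.9% lower. The median difference was 4.78 over the 6 genes and -0.19 over all listed genes. In bulk samples a smaller number of cells of a type and less RNA per cell cannot be told apart, here and in every result below.

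By E13.5 the cascade had split. *Tbr1*, *Neurod2* and *Neurod6* were called higher in Ebf2-EGFP+ cells, while *Neurog2* and *Eomes* were called lower and *Neurod1* was not called. Over the list 32.1% of genes were called higher and 43.5% lower at this stage. At E15.5 *Tbr1* alone of the 6 was called higher, *Neurog2*, *Eomes* and *Neurod1* were called lower, and *Neurod2* and *Neurod6* were not called. The *Neurod1* libraries overlapped there, and its call was lost in several settings given below. Shares of the list at E15.5 were 25.8% higher and 31.6% lower. With median-of-ratios scaling the balance of the list turned at both stages, from 1559 higher and 2114 lower to 1900 and 1752 at E13.5, and from 1254 and 1534 to 1597 and 1323 at E15.5. Median-of-ratios scaling, which places the typical listed gene at no change, moved the median of all listed genes from -0.19 to -0.0029 at E11.5 and from -0.19 to -0.00035 at E13.5, and turned the sign of the *Neurod1* difference at E13.5 and of the *Neurod6* difference at E15.5.

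**Figure D1:**
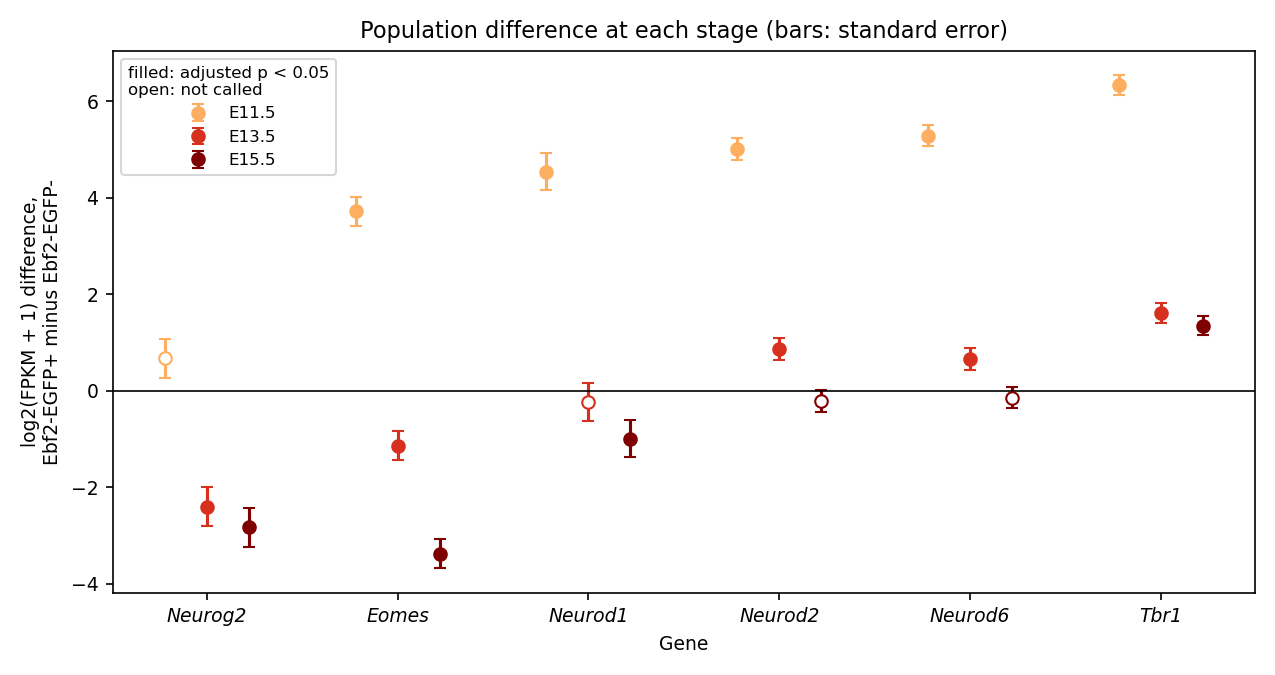
Log2(FPKM + 1) difference between Ebf2-EGFP+ and Ebf2-EGFP- cells for each gene and stage, with the standard error of the limma fit as bars, filled where the adjusted p is under 0.05 and open where it is not. All 6 values at E11.5 lie above 0, and those at E15.5 run from -3.38 for *Eomes* to 1.34 for *Tbr1*.

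From E11.5 to E13.5 all 6 genes rose in Ebf2-EGFP- cells, where 26% of listed genes were called higher and 33.5% lower. The rises ranged from 2.43 for *Neurog2* to 7.09 for *Neurod6*. Over the same step in Ebf2-EGFP+ cells *Neurod2* and *Neurod6* rose, *Eomes* and *Neurod1* fell, and *Neurog2* and *Tbr1* were not called, against 21.8% of listed genes called higher and 36.1% lower. Median-of-ratios scaling changed that split of the list from 1057 higher and 1755 lower to 1343 higher and 1446 lower. In Ebf2-EGFP- cells it turned the split from 1264 higher and 1628 lower to 1453 and 1357.

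From E13.5 to E15.5 fewer of the 6 genes moved. *Neurog2*, *Eomes* and *Tbr1* fell in Ebf2-EGFP+ cells, where 24.6% of listed genes were called higher and 17.3% lower. In Ebf2-EGFP- cells *Neurod2* rose and *Neurog2* fell, where 28.8% were called higher and 34.8% lower.

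*Neurog2*, at the head of the cascade, was present in both populations at E11.5. Its values were 34.8 and 34.9 FPKM in the Ebf2-EGFP+ libraries, and 19.9 and 23.0 in the Ebf2-EGFP- libraries. The libraries did not overlap, but the difference of 0.68 (SE 0.40) was not called (limma adjusted p = 0.14). With the replicate number as a block it was called (adjusted p = 0.000424), and median-of-ratios scaling gave 0.92 (adjusted p = 0.0306). A fit of the compared groups only called it too (adjusted p = 0.00111).

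At E13.5 *Neurog2* stood at 157.5 and 91.7 FPKM in Ebf2-EGFP- cells, its highest group, and at 29.2 and 16.2 in Ebf2-EGFP+ cells. At E15.5 it measured 68.2 and 28.0 in Ebf2-EGFP- cells against 7.22 and 3.83 in Ebf2-EGFP+ cells. The populations did not overlap at either stage, although the replicates of a group were up to 2.43 times apart. The difference was -2.41 (SE 0.40, limma adjusted p = 0.000256) at E13.5 and -2.83 (SE 0.40, adjusted p = 0.000144) at E15.5.

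In Ebf2-EGFP- cells *Neurog2* rose by 2.43 in the first step (SE 0.40, limma adjusted p = 0.000392). It then fell by 1.43 (adjusted p = 0.00954), a call that was lost without replicate 1 at E13.5 (-1.05, adjusted p = 0.102) or replicate 2 at E15.5 (-0.81, adjusted p = 0.0994). In Ebf2-EGFP+ cells the first step was -0.65 (adjusted p = 0.184, or 0.0332 in a fit of the compared groups only) and in the second *Neurog2* fell by 1.85 (adjusted p = 0.00369). From the highest group to the lowest, the order of the means was Ebf2-EGFP- at E13.5 and E15.5, Ebf2-EGFP+ at E11.5 and E13.5, Ebf2-EGFP- at E11.5 and Ebf2-EGFP+ at E15.5. Ebf2-EGFP- libraries at E15.5 overlapped the Ebf2-EGFP+ libraries of E11.5, and Ebf2-EGFP+ libraries at E13.5 overlapped those of Ebf2-EGFP- cells at E11.5.

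*Eomes*, the intermediate progenitor factor, exchanged populations between E11.5 and E13.5. At E11.5 the Ebf2-EGFP+ libraries, its highest group, held 142 and 139 FPKM, and the Ebf2-EGFP- libraries 8.08 and 11.7. At E13.5 the Ebf2-EGFP+ libraries held 54.6 and 38.7 and the Ebf2-EGFP- libraries 110 and 96.0. At E15.5 the values were 9.24 and 4.46 in Ebf2-EGFP+ cells and 97.5 and 60.4 in Ebf2-EGFP- cells. Both Ebf2-EGFP+ libraries were thus above both Ebf2-EGFP- libraries at E11.5 and below both at the later stages.

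The *Eomes* difference was 3.72 (SE 0.30, limma adjusted p = 1.08e-06) at E11.5, which is 13.2-fold. It was -1.15 (adjusted p = 0.0049) at E13.5 and -3.38 (adjusted p = 6.12e-06) at E15.5, when *Eomes* was 10.4-fold lower in Ebf2-EGFP+ cells. In that population it fell by 1.59 in the first step (adjusted p = 0.000955) and by 2.65 in the second (adjusted p = 9.78e-05). In Ebf2-EGFP- cells it rose by 3.28 (SE 0.30, adjusted p = 4.62e-06) and then stood at -0.42 against E13.5 (adjusted p = 0.241), with overlapping libraries. Between its 2 lowest groups, Ebf2-EGFP- at E11.5 and Ebf2-EGFP+ at E15.5, the libraries overlapped as well.

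*Neurod1*, the bHLH gene of cells leaving the cycle, was at E11.5 70.4 and 62.0 FPKM in Ebf2-EGFP+ cells, against 1.56 and 2.23 in Ebf2-EGFP- cells. At E13.5 it was 38.9 and 24.2 in Ebf2-EGFP+ cells, a range that encloses the 36.6 and 36.3 of Ebf2-EGFP- cells. At E15.5 the Ebf2-EGFP+ libraries were 2.92 times apart, at 30.2 and 10.4, and the Ebf2-EGFP- libraries held 46.6 and 28.6. The populations stood far apart at E11.5 and overlapped at the 2 later stages.

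The difference in *Neurod1* was 4.54 at E11.5 (SE 0.39, limma adjusted p = 1.52e-06). At E13.5 it was -0.24 (SE 0.39, adjusted p = 0.59), and 0.065 under median-of-ratios scaling. At E15.5 it was -0.99 (SE 0.39, adjusted p = 0.0463), a call that was lost without Ebf2-EGFP+ replicate 2 (-0.26, adjusted p = 0.504) or Ebf2-EGFP- replicate 1 (-0.65, adjusted p = 0.259), with median-of-ratios scaling (adjusted p = 0.0766), without the variance trend (adjusted p = 0.0522) and in a fit of the compared groups only (adjusted p = 0.158). In Ebf2-EGFP- cells *Neurod1* rose by 3.70 in the first step (adjusted p = 1.33e-05) and then stood at 0.0045 against E13.5 (SE 0.39, adjusted p = 0.993). In Ebf2-EGFP+ cells it fell by 1.08 in the first step (SE 0.39, adjusted p = 0.0325). That call was lost under median-of-ratios scaling (adjusted p = 0.0591) and without replicate 1 or 2 at E11.5 or replicate 2 at E13.5 (adjusted p = 0.135, 0.0864 and 0.218). The second step was -0.75 (adjusted p = 0.144). It ranged from -1.48 without replicate 1 at E15.5, when it was called (adjusted p = 0.0056), to -0.02 without replicate 2 at E15.5. Its 4 middle groups overlapped each with the next.

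*Neurod2*, a factor of postmitotic pyramidal neurons, was at its lowest in Ebf2-EGFP- cells at E11.5, with 0.795 and 0.747 FPKM against 50.5 and 62.1 in Ebf2-EGFP+ cells. At E13.5 it measured 218 and 229 in Ebf2-EGFP+ cells and 110 and 137 in Ebf2-EGFP- cells. At E15.5 the Ebf2-EGFP+ libraries held 281 and 173 and the Ebf2-EGFP- libraries 298 and 219. The populations were separate at E11.5 and E13.5 and overlapped at E15.5.

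The *Neurod2* difference was 5.01 at E11.5 (SE 0.23, limma adjusted p = 2.89e-08) and 0.86 at E13.5 (adjusted p = 0.00502). At E15.5 it was -0.21 (SE 0.23, adjusted p = 0.443), and turned to 0.14 without Ebf2-EGFP+ replicate 2. *Neurod2* rose in both populations in the first step, by 1.98 (adjusted p = 2.89e-05) in Ebf2-EGFP+ cells and by 6.13 (adjusted p = 7.98e-09) in Ebf2-EGFP- cells. In the second step it rose by 1.05 in Ebf2-EGFP- cells (adjusted p = 0.00233) and was -0.018 (SE 0.23, adjusted p = 0.958) in Ebf2-EGFP+ cells, or 0.0020 under median-of-ratios scaling. Of the 6 groups, the 3 highest for *Neurod2*, Ebf2-EGFP- at E15.5 and Ebf2-EGFP+ at E15.5 and E13.5, overlapped each with the next.

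*Neurod6*, its close relative, reached the highest level of the 6 genes. The Ebf2-EGFP+ libraries measured 69.0 and 97.0 FPKM at E11.5 and the Ebf2-EGFP- libraries 0.779 and 1.54. At E13.5 these values were 472 and 436 in Ebf2-EGFP+ cells and 257 and 322 in Ebf2-EGFP- cells. At E15.5 they were 369 and 283 in Ebf2-EGFP+ cells and 377 and 342 in Ebf2-EGFP- cells, and overlapped only at that stage.

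The *Neurod6* difference was 5.28 at E11.5 (SE 0.22, limma adjusted p = 1.91e-08). At E13.5 it was 0.65 (SE 0.22, adjusted p = 0.0179), and the call was lost without replicate 1 of Ebf2-EGFP+ cells (adjusted p = 0.0802) or of Ebf2-EGFP- cells (adjusted p = 0.125). At E15.5 it was -0.15 (SE 0.22, adjusted p = 0.576), or 0.060 under median-of-ratios scaling. *Neurod6* rose by 7.09 in Ebf2-EGFP- cells in the first step (SE 0.22, adjusted p = 2.23e-09), a 136-fold change and the largest step of the 6 genes in either population. In Ebf2-EGFP+ cells the rise was 2.46 (adjusted p = 5.05e-06), followed by -0.49 (adjusted p = 0.0972). The second step in Ebf2-EGFP- cells was 0.32 (adjusted p = 0.221).

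*Tbr1*, the T-box gene of early-born neurons, kept the populations apart at every stage. It measured 268 FPKM in both Ebf2-EGFP+ libraries at E11.5 and 2.49 and 2.17 in the Ebf2-EGFP- libraries. At E13.5 the values were 225 and 228 against 66.1 and 81.7. At E15.5 they were 170 and 111 against 60.4 and 47.7. The 3 Ebf2-EGFP+ groups were above the 3 Ebf2-EGFP- groups, and no 2 neighbours in the order of its 6 groups overlapped.

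The *Tbr1* difference was 6.34 at E11.5 (SE 0.20, limma adjusted p = 5.91e-09), 1.61 at E13.5 (adjusted p = 3.5e-05) and 1.34 at E15.5 (adjusted p = 0.000182). In Ebf2-EGFP- cells it rose by 4.49 in the first step (adjusted p = 2.85e-08) and stood at -0.45 in the second (adjusted p = 0.0671), which was called without replicate 1 at E15.5 (-0.61, adjusted p = 0.0408). In Ebf2-EGFP+ cells the first step was -0.24 (adjusted p = 0.311) and in the second *Tbr1* fell by 0.71 (SE 0.20, adjusted p = 0.0136). That last call was lost without replicate 1 or 2 at E13.5 or replicate 2 at E15.5 (adjusted p = 0.0614, 0.0555 and 0.132).

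**Figure D2:**
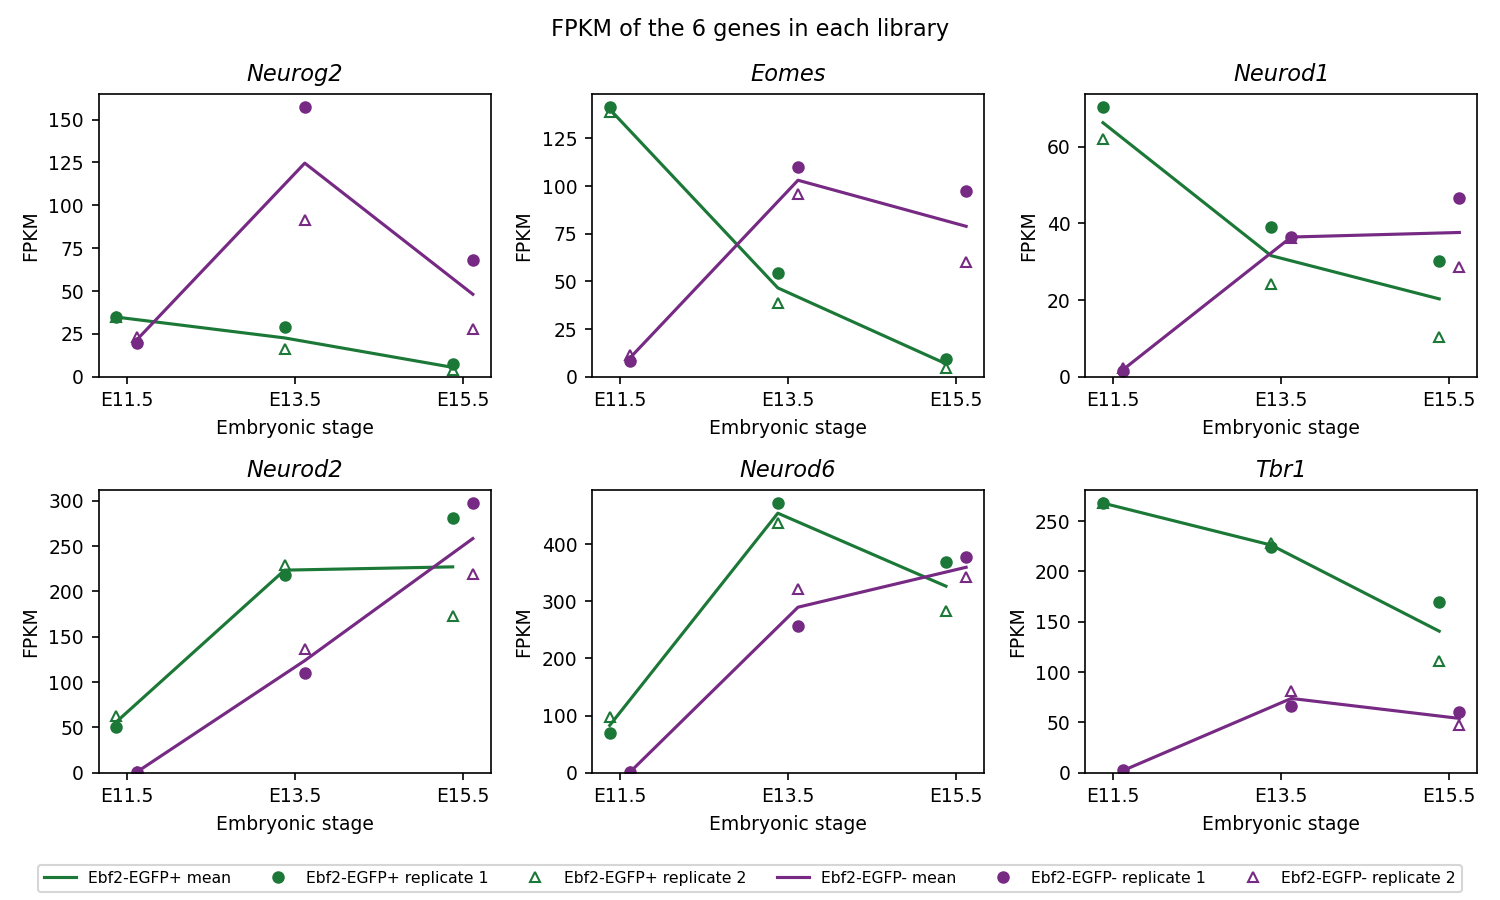
FPKM of the 6 genes in each of the 12 libraries by stage, with Ebf2-EGFP+ cells in green, Ebf2-EGFP- cells in purple, replicate 1 filled, replicate 2 open and lines through the means of 2 libraries. *Eomes* starts at 142 and 139 in Ebf2-EGFP+ cells and ends at 9.24 and 4.46, while *Neurod2* and *Neurod6* start below 2 FPKM in Ebf2-EGFP- cells and meet the other population at E15.5.

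The change of the population difference was tested directly. From E11.5 to E13.5 it moved toward Ebf2-EGFP- cells for all 6 genes, where 15.6% of listed genes were called with a rise of the difference and 19.6% with a fall. The changes ran from -3.09 for *Neurog2* (SE 0.57, limma adjusted p = 0.00176) to -4.87 for *Eomes* (SE 0.43, adjusted p = 1.83e-05). The median was -4.68 over the 6 genes and -0.06 over all listed genes. From E13.5 to E15.5 only *Eomes* was called among the 6 (-2.23, SE 0.43, adjusted p = 0.0107), where 9.14% of listed genes were called with a rise and 3.42% with a fall. With the replicate number as a block 3 genes were called, *Eomes*, *Neurod2* (-1.07, adjusted p = 0.00182) and *Neurod6* (-0.80, adjusted p = 0.00587), and 1775 listed genes in place of 610. *Neurod2* was also called with median-of-ratios scaling (-1.17, adjusted p = 0.0313) and without Ebf2-EGFP- replicate 2 at E13.5, Ebf2-EGFP+ replicate 1 at E15.5 or Ebf2-EGFP- replicate 2 at E15.5 (adjusted p = 0.0364, 0.0117 and 0.0481), and *Neurod1* without Ebf2-EGFP+ replicate 1 at E15.5 (-1.48, adjusted p = 0.0399). *Tbr1* was at -0.27 (SE 0.28, adjusted p = 0.514) in this second step.

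Each gene was also scaled to its own highest stage within a population. In Ebf2-EGFP- cells at E11.5 *Neurog2* already stood at 17.2% of its highest stage mean and *Eomes* at 9.58%. *Neurod1* stood at 5.05% and *Tbr1* at 3.15%. The lowest shares were those of *Neurod6* (0.322%) and *Neurod2* (0.298%). In that population *Neurog2*, *Eomes* and *Tbr1* had their highest mean at E13.5 and the 3 *Neurod* genes at E15.5, *Neurod1* with 96.8% of it already present at E13.5.

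In Ebf2-EGFP+ cells *Neurog2*, *Eomes*, *Neurod1* and *Tbr1* were highest at E11.5. By E15.5 *Eomes* had 4.88% of that level, *Neurog2* 15.9%, *Neurod1* 30.7% and *Tbr1* 52.5%. *Neurod6* peaked at E13.5 and kept 71.9% at E15.5, whereas *Neurod2* reached 98.4% of its highest mean at E13.5. These shares rest on means of 2 libraries and were not tested against each other.

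**Figure D3:**
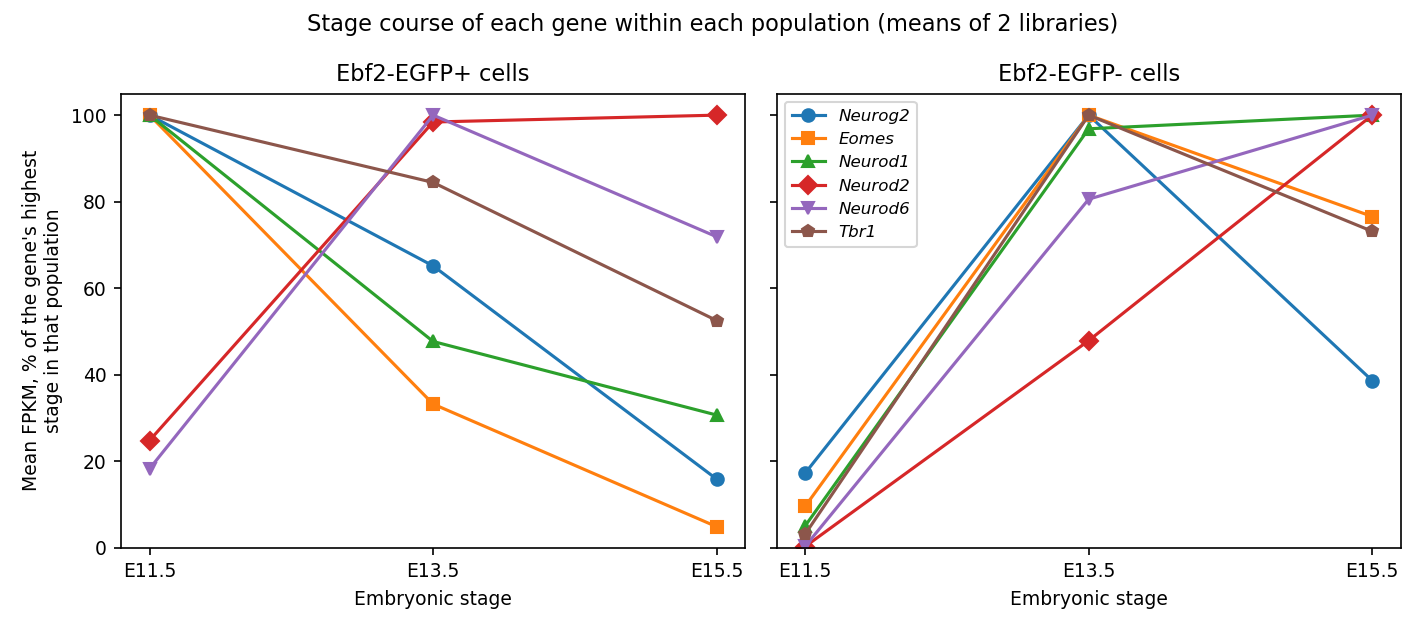
Mean FPKM of each gene as a percentage of its own highest stage, by stage, in Ebf2-EGFP+ cells on the left and Ebf2-EGFP- cells on the right, each point the mean of 2 libraries. At E11.5 the Ebf2-EGFP- points run from 17.2% for *Neurog2* down to 0.298% for *Neurod2*, and at E15.5 the Ebf2-EGFP+ points run from 4.88% for *Eomes* to 100% for *Neurod2*.

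Since FPKM is per length, levels could also be compared between genes within a library. *Tbr1* was the highest of the 6 genes in both Ebf2-EGFP+ libraries at E11.5, followed by *Eomes*, and *Neurog2* was the lowest. In both Ebf2-EGFP- libraries of that stage *Neurog2* was the highest and *Eomes* followed. From E13.5 on *Neurod6* was the highest of the 6 in all 8 libraries. *Neurog2* was 2.46 and 1.98 times *Eomes* in the Ebf2-EGFP- libraries of E11.5, and 0.246 and 0.251 times in Ebf2-EGFP+ cells. *Eomes* was 3.25 and 5.38 times *Tbr1* in the Ebf2-EGFP- libraries of E11.5, and 0.528 and 0.519 times in Ebf2-EGFP+ cells. By E15.5 that last ratio was 0.0543 and 0.0401 in Ebf2-EGFP+ cells and 1.61 and 1.26 in Ebf2-EGFP- cells. In these 2 pairs the more abundant gene at E11.5 was not the same in the 2 populations. *Eomes* was above *Neurod1* in both, by 2.01 and 2.24 times in the Ebf2-EGFP+ libraries and 5.17 and 5.22 times in the Ebf2-EGFP- libraries of that stage.

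Across the 12 libraries *Neurod2* and *Neurod6* had the most similar profiles (Pearson r = 0.993 on log2(FPKM + 1)). *Neurod1* and *Tbr1* followed at 0.875. *Neurog2* and *Eomes* were at 0.799, whereas *Neurog2* was at 0.0347 with *Neurod2* and at -0.03 with *Tbr1*. The 12 points share stage, population and library, so these values are descriptions. Among the other listed genes with a mean of at least 1 FPKM, those most like *Neurog2* were *Dhrs4* (r = 0.976), *Rab8b* (0.959) and *Abcd2* (0.952). For *Eomes* they were *Mfap4* (0.973), *Kif26b* (0.953) and *Igsf8* (0.952), and for *Neurod1* *Bcar1* (0.959), *Arhgef2* (0.954) and *Snapc3* (0.953). *Prdm8* was the closest to both *Neurod2* (0.997) and *Neurod6* (0.991), with *Bhlhe22* next (0.994 and 0.987). *Cntn2* (0.990) and *Ntng2* (0.984) completed those 2 sets. *Nxph4* (0.976), *Dner* (0.974) and *Asb1* (0.971) were most like *Tbr1*. The same 3 genes were found for *Neurog2*, *Neurod2* and *Neurod6* with a pseudocount of 0.1 and with median-of-ratios scaling, while at least 1 of the 3 was replaced for *Eomes*, *Neurod1* and *Tbr1* under each.

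The wider bHLH network was read from 13 genes, all measured, that encode other proneural and neuronal bHLH factors, their E-protein partners and the Id proteins that block them. At E11.5 4 were called higher in Ebf2-EGFP+ cells, 6 lower and 3 were not called. At E13.5 the counts were 3, 9 and 1, and at E15.5 they were 1, 9 and 3. The neuronal bHLH genes *Nhlh2* (95.2 against 1.58 FPKM), *Nhlh1* (101 against 2.05) and *Bhlhe22* (14.9 against 0.433) were called higher at E11.5, by 5.22, 5.06 and 3.47. *Nhlh2* remained called higher at E13.5 (1.88) and E15.5 (3.37), and was the 1 gene of the list in that direction at E15.5. *Bhlhe22* had the same calls as *Neurod2*, 1.08 at E13.5 (limma adjusted p = 3.5e-05) and -0.12 at E15.5 (adjusted p = 0.461). The inhibitor genes *Id3* and *Id1* were called lower at all 3 stages, with differences of -3.03 and -2.01 at E11.5. *Id4*, named after its values were seen, was called lower at all 3 stages too. *Id2*, named likewise, was at -0.01 at E11.5 and 0.20 at E15.5, neither called, and was called higher at E13.5 (0.61). The median difference of the list was -0.01, -1.15 and -1.50 at the 3 stages, against -0.19, -0.19 and -0.11 over all listed genes.

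Notch signalling, through which cells expressing proneural factors hold their neighbours in the progenitor state, was read from 15 genes, all measured. At E11.5 5 were called higher, 7 lower and 3 were not called, close to the 36.8% higher and 44.9% lower over all listed genes. The genes called higher included the ligand genes *Dll3* (1.70) and *Jag2* (1.49) and the glycosyltransferase gene *Mfng* (0.87), while leaving out any single E11.5 library left 3 called higher unless it was Ebf2-EGFP- replicate 1. The effectors *Hes1* (-3.50) and *Hes5* (-3.50) and the receptor gene *Notch3* (-3.24) were called lower. At E13.5 13 were called lower and 1, *Jag2*, higher (0.65, limma adjusted p = 0.022), a call lost without Ebf2-EGFP+ replicate 1 or 2 (adjusted p = 0.0522 and 0.0931) or Ebf2-EGFP- replicate 1 (adjusted p = 0.186). At E15.5 11 were called lower and 4 were not called. *Mfng* turned, as *Eomes* did, to -1.33 and -2.39 at the later stages. The medians were -0.43, -1.33 and -0.97.

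Genes known downstream of *Neurog2* or in intermediate progenitors, 14 in number and all measured, moved from mostly higher to mostly lower, as *Eomes* did. At E11.5 11 were called higher and 3 were not called, with a median of 1.35. At E13.5 2 were called higher, 7 lower and 5 were not called, with a median of -0.43. Without Ebf2-EGFP+ replicate 2 or Ebf2-EGFP- replicate 1 of that stage 4 were called lower, and without any 1 library other than Ebf2-EGFP+ replicate 2 1 was called higher. At E15.5 12 were called lower and 2 were not called, with a median of -1.31. Of all listed genes 36.8%, 32.1% and 25.8% were called higher at the 3 stages, and 44.9%, 43.5% and 31.6% lower. The somatostatin receptor gene *Sstr2* was called higher at E11.5 (2.92, 20.9 against 1.89 FPKM) and lower at E13.5 (-0.84) and E15.5 (-1.86). *Rnd2*, encoding a small GTPase of neuronal migration, was called higher at E11.5 (2.85) and E13.5 (0.71) and lower at E15.5 (-1.28). *Dcx*, a microtubule-binding protein gene of migrating neurons, was called higher at E11.5 (2.81) and E13.5 (0.82) and was at -0.11 at E15.5 (limma adjusted p = 0.683). At E13.5 the *Rnd2* call was lost without Ebf2-EGFP+ replicate 1 (adjusted p = 0.111) or Ebf2-EGFP- replicate 2 (adjusted p = 0.0868), that of *Dcx* without Ebf2-EGFP- replicate 1 (adjusted p = 0.0697), and that of *Sstr2* without Ebf2-EGFP+ replicate 2 (adjusted p = 0.0632) and with median-of-ratios scaling (adjusted p = 0.0652).

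Among 9 transcription factor genes of dorsal pallial progenitors, all measured, 5 were called lower, 2 higher and 2 not at E11.5. Those called lower were led by *Sox2* (-3.57), *Sox1* (-3.38) and *Sox9* (-2.96). *Emx1* (0.92, limma adjusted p = 0.0177) and *Lhx2* (0.56, adjusted p = 0.0371) were called higher, and neither call held when any 1 of the 4 libraries of that stage was left out (*Emx1* adjusted p = 0.0533 to 0.078, *Lhx2* 0.0807 to 0.137). At E13.5 7 were called lower. At E15.5 7 were called lower and 1 higher, *Emx2* (1.21), which is named after its value was seen. The medians were -1.79, -2.66 and -2.03. Shares over all listed genes were 36.8%, 32.1% and 25.8% higher at the 3 stages, and 44.9%, 43.5% and 31.6% lower.

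Genes linked to *Tbr1*, as targets or as partners in deep-layer and CR identity, numbered 10, all measured. The list does not separate genes by the direction of their link, so its counts do not measure agreement with *Tbr1*. At E11.5 6 were called higher and 4 were not called. At E13.5 5 were called higher, 2 lower and 3 were not called, and at E15.5 the counts were 6, 2 and 2. The number called higher was 3 at E13.5 without Ebf2-EGFP+ replicate 2 or Ebf2-EGFP- replicate 1. It was 3 at E15.5 without Ebf2-EGFP+ replicate 1 or Ebf2-EGFP- replicate 2, when 1 was called lower. *Reln*, the secreted glycoprotein gene of CR neurons and a known *Tbr1* target, was called higher at all 3 stages, by 4.31, 5.12 and 5.54. *Bcl11b*, a deep-layer factor, was called higher at each stage too (1.39, 1.42 and 1.21), although each call was lost without some single library. These were Ebf2-EGFP+ replicate 2 or Ebf2-EGFP- replicate 1 at E11.5 (limma adjusted p = 0.0846 and 0.0869) and at E13.5 (adjusted p = 0.0615 and 0.0973), and Ebf2-EGFP+ replicate 1 or Ebf2-EGFP- replicate 2 at E15.5 (0.56, adjusted p = 0.316, and 0.60, adjusted p = 0.266). *Grin2b*, an NMDA receptor subunit gene, was called higher by 1.15, 2.05 and 1.31. Named after their values were seen, the genes called lower were *Cdh8* and *Nr4a2* at E13.5, and *Cdh8* was 1 of the 2 called lower at E15.5. The list medians were 0.72, 0.86 and 0.92. All listed genes had shares of 36.8%, 32.1% and 25.8% called higher at the 3 stages, and 44.9%, 43.5% and 31.6% lower.

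Marker sums also differed between stages and populations. Summed FPKM of 5 cell cycle genes was 162 to 184 in Ebf2-EGFP+ cells at E11.5, the highest group of *Eomes*, *Neurod1* and *Tbr1*. At the later stages it was 41.4 to 69.2 and 7.35 to 7.39. In Ebf2-EGFP- cells it was 465 to 534, 229 to 349 and 49.7 to 93.4. The radial glia sum of Ebf2-EGFP- cells was 456 to 817 by E15.5. Their pan-neuronal sum over 5 genes was 645 to 698, 1154 to 1283 and 2008 to 2554 at the 3 stages. The cortical plate sum over 6 genes in Ebf2-EGFP- cells was 62.8 to 65.9, 117 to 153 and 240 to 276 by stage. *Neurod2* and *Neurod6* means were in the same order there. In Ebf2-EGFP+ cells this sum was higher at every stage, at 84.3 to 103, 285 to 316 and 289 to 439. The *Neurod6* mean of that population went from 454 at E13.5 to 326 FPKM at E15.5. None of the measured genes of these lists was listed at 0 in any library. Their part in the differences was not tested.

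In Ebf2-EGFP+ cells at E15.5, 7 CR genes summed to 539 and 1157 FPKM in replicates 1 and 2, against 14.0 to 18.3 in Ebf2-EGFP- cells. The cortical plate genes in the same 2 libraries summed to 439 and 289, and 4 subplate genes to 74.1 and 36.4. In replicates 1 and 2 of Ebf2-EGFP- cells these sums were 276 and 240, and 52.3 and 28.1. Most of the subplate sums came from *Nxph4*, with means of 42.7 FPKM in Ebf2-EGFP+ and 28.4 in Ebf2-EGFP- cells (standard deviations 23.7 and 16.5). All 6 cascade genes were lower in replicate 2 of Ebf2-EGFP+ cells, by ratios of 1.30 for *Neurod6* to 2.92 for *Neurod1*. At E13.5 the replicates did not show this order. There replicate 2 of Ebf2-EGFP+ cells had a higher sum of CR genes (228 against 171) and of cortical plate genes (316 against 285). *Neurod2* and *Tbr1* were slightly higher in it and the other 4 cascade genes lower. Of the CR genes, *Reln* alone averaged 156 FPKM (standard deviation 43.8) in this group. At E15.5 its mean was 662 (standard deviation 371), so the CR sums and their gaps between replicates mostly follow *Reln*. In the Ebf2-EGFP- libraries of E15.5 replicate 2 was again the lower for all 6 genes, with ratios of replicate 1 to replicate 2 from 1.10 for *Neurod6* to 2.43 for *Neurog2* and radial glia sums of 817 and 456. The part of these marker levels in the spread was not tested.

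**Figure D4:**
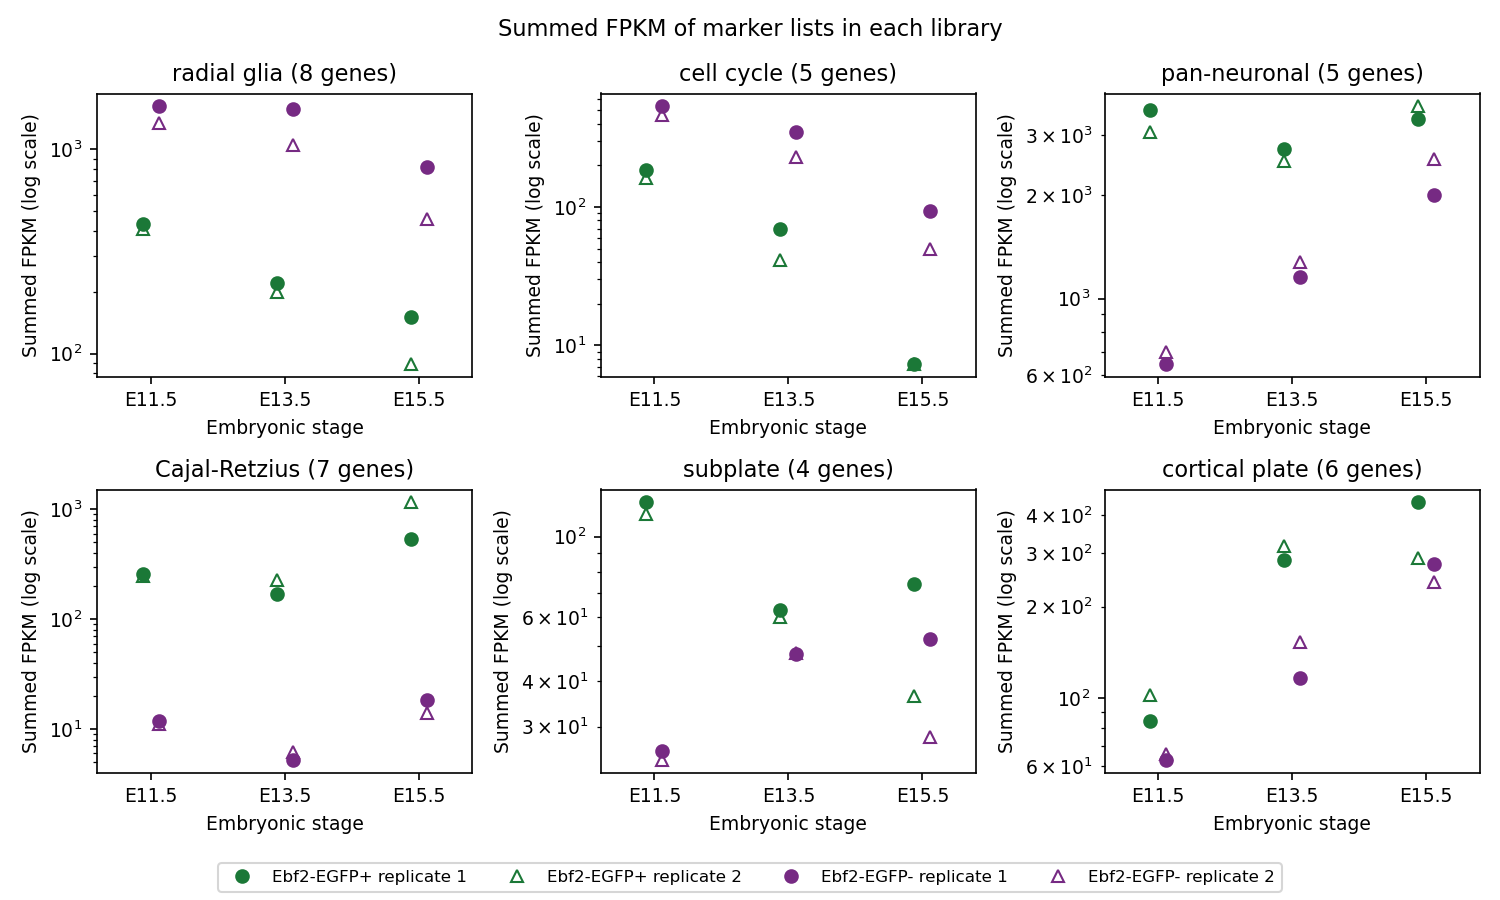
Summed FPKM, on a log scale, of 6 marker lists in each library by stage, with Ebf2-EGFP+ cells in green, Ebf2-EGFP- cells in purple, replicate 1 filled and replicate 2 open. The Ebf2-EGFP+ libraries at E15.5 reach 539 and 1157 for CR genes and lie at 439 and 289 for cortical plate genes, while the cell cycle sum there is down to 7.35 to 7.39. In these libraries *Reln* (mean 662) and *Nxph4* (mean 42.7) make up most of the CR and subplate sums.

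Erythroid, ganglionic eminence, meningeal and endothelial markers were highest in Ebf2-EGFP- cells at E11.5. Those libraries held 741 to 1598 FPKM for the 2 measured erythroid genes, 177 to 234 for 8 ganglionic eminence genes and 108 to 126 for 5 meningeal genes. Ebf2-EGFP+ cells of that stage held 18.7 to 55.5, 9.55 to 12.7 and 41.6 to 46.8. The erythroid and ganglionic eminence sums were thus highest in the libraries in which *Neurod1*, *Neurod2*, *Neurod6* and *Tbr1* were lowest, and their part in those 4 differences was not tested. Endothelial genes summed to 4.39 to 7.19 in the Ebf2-EGFP- libraries at E11.5 and to under 3 FPKM in every other library. The 1 measured microglial gene was instead highest in Ebf2-EGFP+ cells at E15.5, at 2.87 and 2.92 FPKM, and under 1 FPKM in the other groups.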

How the data were processed

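RNA-seq of 12 libraries was analysed, 2 replicates for each of 2 populations (Ebf2-EGFP+, Ebf2-EGFP-) and 3 stages, grouped by their labels. The authors deposited FPKM computed with Cufflinks 2.2.0 on reads that TopHat2 2.0.8b aligned to mm10, for 4859 coding genes they selected as differential. The deposited table also holds the authors' group means, fold changes, p-values and adjusted p-values, which are the study's findings and were not used. A table of lncRNAs was not used. Fragment counts could not be recovered, since at most 16.5% of genes under 0.15 FPKM shared 1 ratio between replicates (within 1%). The study's methods give an average read number over the samples, but the depth of each library is not in the table, and precision rests on the spread between 2 libraries.

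The fit used log2(FPKM + 1), limma (version 3.58.1, under R 4.3.3), 1 coefficient for each of the 6 groups, all 12 libraries, moderation with a trend and two-sided p-values adjusted over the 4859 genes for each of 9 comparisons. On simulated data for the E13.5 population difference over 4859 genes, 77 of 100 genes changed by a log2 of 1 and 98 of 100 changed by 2 were called, and 14 of 4659 unchanged genes. The simulation drew independent normal noise and changed no other genes, unlike these data, so its rates need not hold here. The members and all lists were chosen with earlier results of these data known. Besides the 6 genes, the text names the 3 genes most like each by Pearson r and, from each of 5 pathway lists, at most 3 genes called higher and 3 called lower at E11.5 with non-overlapping libraries. A few of the genes so chosen are not reported here. A further 11 lists of cell type markers were summed as FPKM.

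Both populations of a stage share replicate numbers. After the group means were subtracted, libraries with the same number correlated at 0.431, 0.534 and 0.431 over the genes at the 3 stages. The main fit leaves this pairing out, and the block for the replicate number takes same-numbered libraries of a stage as a pair. That block was fixed for population differences and their changes, and random for the steps between stages. Alternatives were a pseudocount of 0.1, median-of-ratios scaling, a mean of at least 1 FPKM, no trend, a fit of just the compared groups, a block for the replicate number and each library left out. Gene positions are from GENCODE M21 and promoters from RefSeq on GRCm38.p6.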

Additional observations from a re-analysis of the deposited data

Results flagged for a closer look

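The difference between Ebf2-EGFP+ and Ebf2-EGFP- cells was not the same at all stages, by limma's test of the change itself. From E11.5 to E13.5 it changed by -3.09 for *Neurog2* (SE 0.57, adjusted p = 0.00176), by -4.87 for *Eomes* (SE 0.43, adjusted p = 1.83e-05) and by -4.78 for *Neurod1* (SE 0.55, adjusted p = 0.000111). *Neurod2* changed by -4.15 (SE 0.32, adjusted p = 7.92e-06), *Neurod6* by -4.63 (SE 0.31, adjusted p = 3.29e-06) and *Tbr1* by -4.73 (SE 0.28, adjusted p = 1.65e-06). From E13.5 to E15.5 *Eomes* changed by a further -2.23 (SE 0.43, adjusted p = 0.0107). All are log2 values of the Ebf2-EGFP+ minus Ebf2-EGFP- difference at the later stage less that at the earlier one.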

How the results depend on the processing

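In the fits without 1 library, the group left with a single sample is assumed to vary like the others. From E13.5 to E15.5, where 1 of the 6 genes and 610 listed genes were called for a changed population difference, median-of-ratios scaling called 2 of the 6, the replicate block 3 of the 6 and 1775 listed genes, and the compared groups alone 138 listed genes. Without 1 library these were 1 to 3 of the 6 and 125 to 1135 listed genes, the lowest without Ebf2-EGFP- replicate 1 at E13.5. The E13.5 to E15.5 step called 1247 to 1653 listed genes in Ebf2-EGFP+ cells (2035 with all libraries), and in Ebf2-EGFP- cells 1 to 3 of the 6 (2 with all) and 1962 to 3040 listed genes (3089 with all). Besides these and *Neurog2* at E11.5, the replicate block changed no call of the 6 genes.

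Signs turned only for values that were not called. *Neurod1* at E13.5 was 0.065 with median-of-ratios scaling, and -0.57 to 0.094 without 1 library, above 0 without Ebf2-EGFP+ replicate 2. At E15.5 *Neurod6* was 0.060 with that scaling and -0.34 to 0.041 without 1 library, above 0 without Ebf2-EGFP+ replicate 2. *Neurod2* at E15.5 ranged from -0.56 to 0.14, above 0 without Ebf2-EGFP+ replicate 2 (0.14) or Ebf2-EGFP- replicate 1 (0.0098). The last *Neurod2* step in Ebf2-EGFP+ cells was 0.0020 with that scaling, and -0.37 to 0.33 without 1 library, above 0 without replicate 2 at E13.5 (0.016) or at E15.5 (0.33). The last *Neurod1* step in Ebf2-EGFP- cells ranged from -0.34 to 0.35, below 0 without replicate 2 at E13.5 (-0.00074) or replicate 1 at E15.5 (-0.34). The last change of the difference ranged from -0.57 to 0.037 for *Tbr1*, above 0 without Ebf2-EGFP+ replicate 2 at E15.5, and from -1.05 to 0.21 for *Neurog2*, above 0 without Ebf2-EGFP- replicate 1 at E15.5. Among the named list genes at E15.5, *Bhlhe22* was 0.088 and *Dcx* 0.096 with that scaling, and without 1 library *Dcx* ranged from -0.39 to 0.17 and *Nhlh1* from -1.70 to 0.11. *Dll3* at E13.5 ranged from -0.14 without Ebf2-EGFP- replicate 2 to 0.30. *Neurod2* had its highest mean in Ebf2-EGFP+ cells at E15.5, not Ebf2-EGFP- cells, with median-of-ratios scaling (256) and without Ebf2-EGFP+ replicate 2 (281) or Ebf2-EGFP- replicate 1 (227) at E15.5. The cause of these shifts was not tested. Of the pathway list counts, 27 of 300 repeats moved by over 1.5 times.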
